A study of Mus musculus with 86 samples.

Results

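The gastrocnemius, a calf muscle made mostly of fast fibres, was compared between mice injected with dexamethasone (DEX, a synthetic glucocorticoid) and non-treated mice, using all libraries labelled with that muscle and one of those groups. These were 9 of the 86 RNA-seq libraries of the study, 4 from DEX mice and 5 from non-treated mice, and every gene of the expected-count table was considered. The animals were male C57BL/6N mice obtained at 10 weeks of age. The DEX mice received 25 mg/kg DEX, dissolved in phosphate-buffered saline (PBS), by intraperitoneal injection every day for 10 days, together with PBS by oral gavage. The non-treated mice received intraperitoneal PBS in place of DEX and the same oral gavage of PBS, so the injections and the gavage were shared by both groups. Per the series' design text, muscles were taken 1 day after the last injection. The sample protocol instead gives 1 day after the final behavioural test. The total RNA of each muscle was sequenced. The other gastrocnemius libraries came from 34 mice given the same DEX course with a Jakyak-gamcho-tang plant extract or with resveratrol, and the soleus was sequenced for every group. The DEX course was given to induce muscle atrophy, and comparing these mice with the mice that received no DEX asks what that course does to gene expression in the muscle.

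As background, glucocorticoids enter the cell, bind the glucocorticoid receptor (gene Nr3c1) and carry it to DNA, where it raises or lowers the transcription of target genes. In skeletal muscle a sustained excess of hormone wastes fast fibres. The textbook account has the muscle ubiquitin ligases atrogin-1 (Fbxo32) and MuRF1 (Trim63) rising, myostatin rising and signalling by insulin-like growth factor weakening, and the same hormones also dampen inflammation and reset the clocks of peripheral tissues.

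The libraries held 27734419 to 30941267 expected counts in the DEX group and 27075125 to 32143680 in the non-treated group. The label gastrocnemius fitted its markers. Myh4, the myosin heavy chain of the fastest fibres, lay at 41855 to 51234 CPM (counts scaled to the library's total) in DEX and 45995 to 53518 CPM in non-treated gastrocnemius on a scale that also holds the soleus, where the highest value was 1878 CPM. Mss51, a gene of fast muscle, was at 248 to 395 CPM in DEX and at 60.5 to 163 CPM in non-treated gastrocnemius, and no soleus library exceeded 2.22 CPM. The first principal component, with 39.2% of the variance, separated the DEX libraries from the non-treated ones. The second, with 13.1%, set non-treated mouse 3 and DEX mouse 4 apart from the rest of their groups. Calls that rest on either library are given without it. Of 13786 genes tested, 2722 (19.7%) passed an adjusted p of 0.05, 1371 (9.94%) higher and 1351 (9.8%) lower in DEX muscle. Counts of list members given below are to be read beside the shares of 9.94% and 9.8%. The values of the groups did not overlap for 2150 of the 2722 genes that passed. The 12 largest rises and 12 largest falls were picked among such genes. For them a lack of overlap was set by that choice and is no added support. Most changes were small: 140 of the higher and 119 of the lower genes differed by at least 2-fold, and the median size of the log2 fold change over all genes, without its sign, was 0.147. In whole muscle, fewer cells of a type and less RNA per cell cannot be told apart. Below, values are in CPM scaled by TMM over the 9 libraries and run from mouse 1 upwards, fold changes are DEX over non-treated on the log2 scale with their standard error, and "rose" or "fell" means passing that threshold.

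Large rises were found in some secreted acute phase proteins and in single enzymes. Lcn2 encodes lipocalin 2, a carrier of iron-binding siderophores made in the acute phase response. It had 81.5, 64.2, 83.7 and 79.1 CPM in DEX mice, against 1.22, 0.767, 4.08, 0.766 and 1.28 CPM in non-treated mice. Every DEX library stood far above every non-treated one, and non-treated mouse 3 was the highest of its group. The rise was 48.4-fold (log2 fold change 5.60 ± 0.30, adjusted p = 5.77e-07), and the log2 value was 6.26 without non-treated mouse 3. Lcn2 lies at chr2:32384633-32388252 of GRCm38. Orm1 encodes the plasma glycoprotein orosomucoid 1. It had 11.3, 15.1, 14.96 and 13.3 CPM in DEX mice, against 0.816, 0.951, 1.05, 0.9403 and 0.874 CPM in non-treated mice. The groups were again far apart (log2 fold change 3.88 ± 0.12, adjusted p = 3.72e-09), although 27.5% of the 31-base words of Orm1 transcripts are shared with other genes, chiefly its neighbour Orm2, and the counting may split reads between them. Hp encodes the haemoglobin scavenger haptoglobin. It had 38.2, 55.2, 38.2 and 50.96 CPM in DEX mice, against 6.94, 9.69, 22.5, 23.5 and 8.24 CPM in non-treated mice (log2 fold change 1.69 ± 0.32, adjusted p = 0.00335). Mt1 encodes the metal-binding protein metallothionein 1. It had 53.8, 59.5, 41.9 and 37.4 CPM in DEX mice, against 16.6, 11.2, 38.4, 17.2 and 12.3 CPM in non-treated mice, so the groups overlapped through non-treated mouse 3 (log2 fold change 1.34 ± 0.30, adjusted p = 0.00861). In the list of acute phase genes and metallothioneins, 5 of 12 tested members rose and 1 fell, against 9.94% and 9.8% of all genes, with a median log2 fold change of 0.35 against -0.01 over all genes. Mt2, its close relative, had 14.4, 29.1, 10.4 and 18.3 CPM in DEX mice, against 10.0, 4.69, 28.5, 12.1 and 4.67 CPM in non-treated mice and did not pass (log2 fold change 0.60 ± 0.47, adjusted p = 0.4), but passed without non-treated mouse 3 (log2 1.21, adjusted p = 0.0302).

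Pnmt encodes the enzyme that converts noradrenaline to adrenaline and is a known glucocorticoid target in the adrenal medulla. It had 22.6, 17.01, 16.2 and 17.3 CPM in DEX mice, against 0.986, 1.35, 1.41, 0.9403 and 0.807 CPM in non-treated mice. The 16.6-fold rise (log2 fold change 4.05 ± 0.15, adjusted p = 2.61e-08) showed no overlap between the groups. Gnmt methylates glycine and so consumes the methyl donor S-adenosylmethionine. It had 11.5, 9.73, 8.84 and 9.29 CPM in DEX mice, against 0.952, 0.798, 2.74, 0.697 and 1.18 CPM in non-treated mice (log2 fold change 2.96 ± 0.28, adjusted p = 3.95e-05). Nnmt, which methylates nicotinamide, also rose, with 2.45, 2.06, 2.16 and 3.06 CPM in DEX mice, against 0.816, 1.35, 1.37, 0.9403 and 1.01 CPM in non-treated mice (log2 fold change 1.15 ± 0.18, adjusted p = 0.00124). These 3 enzymes were among 4 of 10 tested small-molecule methyltransferases that rose. Chd9 encodes a chromodomain helicase that remodels chromatin. It had 129.5, 148, 143 and 226 CPM in DEX mice, against 35.2, 31.6, 39.1, 31.8 and 28.8 CPM in non-treated mice. DEX mouse 4 was the highest of its group, and even the lowest DEX library exceeded the highest non-treated one more than 3-fold (log2 fold change 2.28 ± 0.15, adjusted p = 2.25e-06). An antisense gene, Gm45641, overlaps exons of Chd9, and without a stated strand setting their reads cannot be told apart. Of 35 detoxification and antioxidant genes 6 rose and 10 fell, against 9.94% and 9.8% of all genes. The median was -0.12, and 3 rose without non-treated mouse 1 or 4 or DEX mouse 2 or 4. The falls included the carbonyl reductase Cbr2, the glutathione transferase Gsta4 and the peroxiredoxin Prdx2, by 1.20, 0.92 and 0.30, and the rises the 3 enzymes that follow. Aldh1a1 encodes a retinaldehyde dehydrogenase. It had 288, 257, 259 and 249 CPM in DEX mice, against 91.3, 102, 75.4, 92.2 and 88.4 CPM in non-treated mice (log2 fold change 1.55 ± 0.08, adjusted p = 2.62e-07). Gpx3 encodes the secreted glutathione peroxidase. It had 350.5, 418, 448 and 272 CPM in DEX mice, against 136, 188, 208, 159 and 231 CPM in non-treated mice (log2 fold change 1.01 ± 0.16, adjusted p = 0.00114). Cyp2e1 encodes a cytochrome P450 of alcohol and ketone oxidation. It had 24.5, 24.7, 26.1 and 62.1 CPM in DEX mice, against 3.23, 11.4, 11.1, 8.01 and 10.8 CPM in non-treated mice, with DEX mouse 4 far above the other DEX mice and all 4 above the non-treated range (log2 fold change 1.95 ± 0.34, adjusted p = 0.0023).

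The receptor and its textbook short-term targets moved little. Nr3c1 encodes the glucocorticoid receptor itself. It had 106, 95.95, 95.4 and 94.4 CPM in DEX mice, against 95.95, 101, 95.5, 98.2 and 100.1 CPM in non-treated mice, and its log2 fold change was -0.002 (adjusted p = 0.981). Hsd11b1 encodes the enzyme that regenerates active glucocorticoid inside cells. It had 5.61, 6.495, 6.71 and 6.94 CPM in DEX mice, against 5.99, 6.32, 4.23, 5.33 and 6.22 CPM in non-treated mice and did not pass (log2 fold change 0.19 ± 0.12, adjusted p = 0.276). Fkbp5 encodes the receptor co-chaperone widely used as a reporter of glucocorticoid exposure. It had 81.3, 73.8, 68.2 and 74.4 CPM in DEX mice, against 85.1, 72.3, 51.5, 53.4 and 59.2 CPM in non-treated mice, and the groups overlapped (log2 fold change 0.21 ± 0.13, adjusted p = 0.279). Without non-treated mouse 1 it passed (log2 0.33, adjusted p = 0.0421). Tsc22d3 encodes the anti-inflammatory protein GILZ. It had 93.6, 106, 109.9 and 164 CPM in DEX mice, against 107, 97.7, 115, 108 and 134 CPM in non-treated mice (log2 fold change 0.08 ± 0.14, adjusted p = 0.747), and only DEX mouse 4 lay above the non-treated range. Without that mouse its log2 fold change was -0.12 (adjusted p = 0.382). Sgk1 and Zbtb16, both hormone-induced in many tissues, had log2 fold changes of -0.01 and -0.02 and did not pass (adjusted p = 0.968 and 0.946). Klf15 drives amino acid breakdown in muscle. It had 20.3, 20.8, 21.1 and 10.4 CPM in DEX mice, against 21.5, 23.9, 22.97, 22.5 and 25.05 CPM in non-treated mice: all DEX values were below all non-treated values, but the change did not pass (log2 fold change -0.35 ± 0.16, adjusted p = 0.148). Across the glucocorticoid response list, 6 of 35 tested genes rose and 4 fell, against 9.94% and 9.8% of all genes. The median was -0.02, and without non-treated mouse 1 the lower count was 7. The risers were Lcn2, Pnmt, Mt1, Dusp1, Cdkn1a and Klf9. Klf9 encodes a Krüppel-like transcription factor. It had 129, 118, 139 and 121 CPM in DEX mice, against 95.3, 101, 99.6, 111 and 107 CPM in non-treated mice, a rise without overlap between the groups (log2 fold change 0.30 ± 0.06, adjusted p = 0.0045).

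The targets that fell included genes held to rise with glucocorticoids. Ddit4 encodes the mTOR inhibitor REDD1. It had 2.12, 1.44, 1.83 and 1.37 CPM in DEX mice, against 4.08, 2.73, 4.62, 3.13 and 4.17 CPM in non-treated mice, every DEX library below every non-treated one (log2 fold change -1.15 ± 0.18, adjusted p = 0.00131). Nr3c2 encodes the mineralocorticoid receptor, which also binds glucocorticoids. It had 9.07, 8.69, 9.29 and 6.19 CPM in DEX mice, against 13.5, 14.8, 10.3, 11.1 and 12.1 CPM in non-treated mice (log2 fold change -0.57 ± 0.13, adjusted p = 0.00997). Ampd3 encodes an AMP deaminase found raised in several models of atrophy. It had 10.3, 11.1, 12.4 and 8.90 CPM in DEX mice, against 13.5, 15.2, 13.98, 14.2 and 14.6 CPM in non-treated mice (log2 fold change -0.42 ± 0.09, adjusted p = 0.0055). Glul, glutamine synthetase and a target in muscle, had 149, 186, 179 and 209 CPM in DEX mice, against 178, 182, 224, 184 and 222 CPM in non-treated mice and did not pass (log2 fold change -0.13 ± 0.10, adjusted p = 0.387). Pck1 encodes the gluconeogenic and glyceroneogenic enzyme PEPCK. It rose, with 12.7, 13.02, 15.6 and 18.3 CPM in DEX mice, against 1.77, 6.41, 4.33, 4.42 and 5.65 CPM in non-treated mice (log2 fold change 1.72 ± 0.25, adjusted p = 0.000699).

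The ubiquitin ligases that serve as atrophy markers were lower in the DEX mice. Fbxo32 had 242, 289, 262 and 133 CPM in DEX mice, against 449.7, 564, 283, 385 and 822 CPM in non-treated mice. DEX mouse 2 was above non-treated mouse 3, the lowest of its group, and the remaining DEX values were all under the non-treated range (log2 fold change -1.11 ± 0.28, adjusted p = 0.017). An antisense gene, Gm15943, overlaps exons of Fbxo32 (chr15:58175879-58214932). Trim63 had 125, 99.5, 114 and 104 CPM in DEX mice, against 196, 203, 121, 169.9 and 268 CPM in non-treated mice. The groups again overlapped only through non-treated mouse 3 (log2 fold change -0.80 ± 0.17, adjusted p = 0.00737). Asb2, part of a ligase that degrades filamins and desmin, had 424, 328, 381 and 304 CPM in DEX mice, against 659, 643, 415, 672 and 672 CPM in non-treated mice, and here non-treated mouse 3 lay well under its group and just under DEX mouse 1 (log2 fold change -0.77 ± 0.14, adjusted p = 0.00266). In the same list, Nedd4, a ligase of membrane proteins, rose with 475, 510.1, 549.6 and 504 CPM in DEX mice, against 399.8, 422, 424, 412 and 439 CPM in non-treated mice (log2 fold change 0.28 ± 0.05, adjusted p = 0.00283). Trim54 encodes the sarcomeric protein MuRF3. It rose with 289.6, 271, 287 and 297 CPM in DEX mice, against 254, 255, 254, 243 and 239.9 CPM in non-treated mice (log2 fold change 0.20 ± 0.04, adjusted p = 0.00863). Usp2 encodes a deubiquitinase under clock control. It rose with 179.8, 181, 214 and 244 CPM in DEX mice, against 99.6, 90.7, 148, 111 and 127 CPM in non-treated mice (log2 fold change 0.83 ± 0.13, adjusted p = 0.00128). Over all 27 tested ubiquitin genes of muscle 5 rose and 6 fell (median 0.03), against 9.94% and 9.8% of all genes. Both directions were represented.

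**Figure D1:**
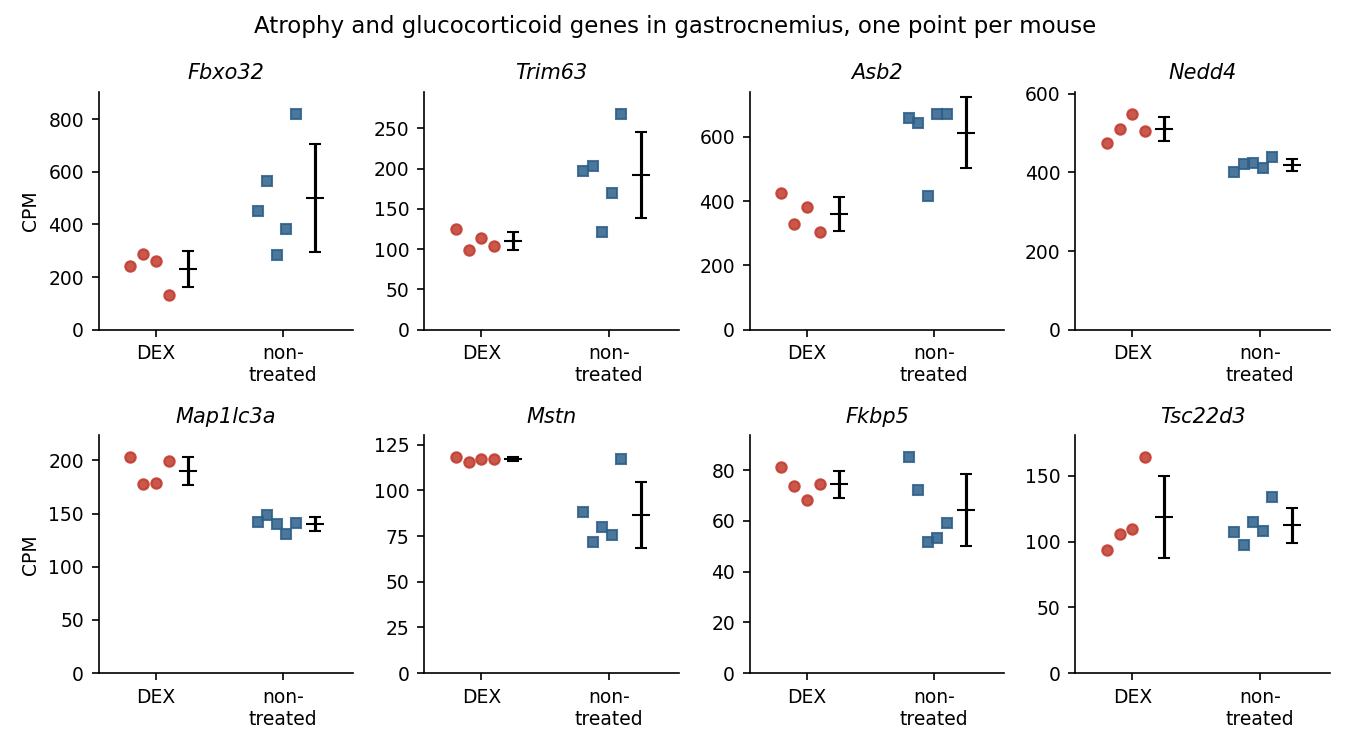
CPM of 8 genes of protein breakdown, growth control and glucocorticoid response, 1 panel each, with DEX mice (n = 4) left of non-treated mice (n = 5). Each point is 1 library and bars are the mean ± SD. Fbxo32, Trim63 and Asb2 average lower in DEX mice, Nedd4, Map1lc3a and Mstn are higher, and the points of Fkbp5 and Tsc22d3 overlap.

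The other arms of protein breakdown held some rises among autophagy genes. FoxO factors switch on the ligases when insulin signalling falls. Foxo1 had 18.8, 20.96, 18.1 and 20.6 CPM in DEX mice, against 18.4, 20.2, 18.5, 20.1 and 22.6 CPM in non-treated mice (adjusted p = 0.854). Foxo3 had 26.7, 24.3, 25.3 and 22.7 CPM in DEX mice, against 25.6, 27.1, 26.5, 24.7 and 27.3 CPM in non-treated mice (adjusted p = 0.322), so that neither passed. Of the 4 FoxO genes tested, Foxo4 rose, by 0.17 (adjusted p = 0.0316), and kept its call only without non-treated mouse 1 or DEX mouse 4 among the 9 fits that left out 1 library. Of 31 proteasome subunits 2 rose and 1 fell, beside 9.94% and 9.8% of all genes. Of 36 genes of autophagy and the lysosome 6 rose and 1 fell, with a median of 0.07. In each of the proteasome and autophagy lists 0 to 2 fell with each library left out. In the second list the rises were all of autophagy, and no lysosomal gene passed among 10. Map1lc3a encodes an LC3 protein of the autophagosome membrane. It had 203, 178, 179 and 199.8 CPM in DEX mice, against 142, 149, 141, 131 and 141 CPM in non-treated mice (log2 fold change 0.43 ± 0.06, adjusted p = 0.000322). Ulk2 encodes a kinase that starts autophagy. It had 159.8, 149, 161 and 175 CPM in DEX mice, against 133, 126, 116, 126 and 127 CPM in non-treated mice (log2 fold change 0.36 ± 0.06, adjusted p = 0.001). Optn encodes a receptor that delivers ubiquitin-tagged cargo. It had 84.1, 78.4, 83.1 and 76.5 CPM in DEX mice, against 67.8, 66.5, 60.2, 64.4 and 62.9 CPM in non-treated mice (log2 fold change 0.32 ± 0.05, adjusted p = 0.000987). The 3 rises were modest, between 1.25-fold and 1.35-fold, and the groups did not overlap for any of them. Nor did they overlap for 2150 of the 2722 genes that passed.

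The core clock shifted in both of its limbs. As background, the factors CLOCK and BMAL1 (gene Arntl), or NPAS2 in place of CLOCK, bind E-boxes. They drive Per, Cry, Ciart and the Rev-erb genes, whose products then repress these factors, and the output gene Dbp. ROR and REV-ERB proteins compete at ROR elements to set Arntl itself. Start regions of 4 clock genes that changed are shown, Ciart and Dbp that rose and Npas2 and Arntl that fell. Those of Per2, which also rose, and of Clock, which also fell, are not shown. The regions shown are the 250 bases before the RefSeq start of each gene in GRCm38.p6. They are written 5′ to 3′ on the gene's own strand, with motif letters in capitals. Ciart is on the minus strand (chr3:95882229-95882478), and Dbp (chr7:45704997-45705246), Npas2 (chr1:39194022-39194271) and Arntl (chr7:113207261-113207510) are on the plus strand, with a further stretch that begins after the Arntl start (chr7:113207528-113207557).
Ciart: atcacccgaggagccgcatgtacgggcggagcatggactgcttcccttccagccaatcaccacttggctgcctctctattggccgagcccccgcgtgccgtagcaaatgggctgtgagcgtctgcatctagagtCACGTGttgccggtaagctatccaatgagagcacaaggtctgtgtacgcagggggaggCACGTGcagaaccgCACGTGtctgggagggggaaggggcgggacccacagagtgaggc
Dbp: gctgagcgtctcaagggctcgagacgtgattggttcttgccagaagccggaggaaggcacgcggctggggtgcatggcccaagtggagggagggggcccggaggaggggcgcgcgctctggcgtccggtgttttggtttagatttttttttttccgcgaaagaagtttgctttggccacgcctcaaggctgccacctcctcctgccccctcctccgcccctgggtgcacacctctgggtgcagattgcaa
Npas2: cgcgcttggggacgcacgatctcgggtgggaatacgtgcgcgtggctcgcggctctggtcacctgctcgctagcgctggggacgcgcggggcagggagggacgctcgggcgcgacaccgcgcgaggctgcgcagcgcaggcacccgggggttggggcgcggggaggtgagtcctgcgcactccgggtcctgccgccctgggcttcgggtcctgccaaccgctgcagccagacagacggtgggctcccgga
Arntl: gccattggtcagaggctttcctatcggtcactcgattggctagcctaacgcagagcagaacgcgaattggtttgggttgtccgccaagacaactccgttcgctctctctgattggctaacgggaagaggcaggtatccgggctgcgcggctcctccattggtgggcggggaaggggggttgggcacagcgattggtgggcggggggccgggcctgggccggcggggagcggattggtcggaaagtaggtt
Arntl stretch after the start: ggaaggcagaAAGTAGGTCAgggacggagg
Both strands were searched for the E-box CACGTG, the D-box TTATGTAA or TTACGTAA, the ROR element AANTAGGTCA and the glucocorticoid element GNACANNNTGTNC, where N is any base. The Ciart region holds 3 E-boxes, beginning at 116, 58 and 44 bases before the start. Of 32851 RefSeq windows (250 bases before to 50 after a start) 7.15% hold any. Among genes with a window, 11.7% of those tested and 6 of 20 clock genes had an E-box in any window. The Arntl stretch holds a ROR element, found in 0.219% of windows. No motif of the 4 lies in the printed Dbp and Npas2 regions, in the 250 bases before the Arntl start or in the windows of Clock. The glucocorticoid element was in 0.475% of all windows, in 0.981% of genes that rose and had a window, in 0.511% of those that fell and in 0.422% of all genes tested that had one. A match is a description of letters and not of binding.

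Arntl had 4.13, 4.61, 5.33 and 3.78 CPM in DEX mice, against 23.7, 26.5, 11.7, 21.4 and 17.3 CPM in non-treated mice, a 4.53-fold fall with no overlap (log2 fold change -2.18 ± 0.21, adjusted p = 5.12e-05). Npas2 had 0.168, 0.275, 0.186 and 0.228 CPM in DEX mice, against 2.11, 2.58, 1.23, 2.65 and 1.55 CPM in non-treated mice, and the fall was 9.28-fold (log2 fold change -3.21 ± 0.31, adjusted p = 4.41e-05). Clock, the constitutive partner, moved far less, with 26.03, 29.9, 24.4 and 25.7 CPM in DEX mice, against 33.7, 31.6, 29.3, 32.2 and 29.9 CPM in non-treated mice (log2 fold change -0.24 ± 0.07, adjusted p = 0.0227), and lost its call without non-treated mouse 1, 2 or 4 or without DEX mouse 1 or 3 (adjusted p of 0.0505 to 0.0698). The other limb went up. Ciart encodes a repressor of CLOCK and BMAL1, and its start region carries the 3 E-boxes shown above. It had 9.13, 14.2, 16.6 and 8.90 CPM in DEX mice, against 1.22, 1.104, 3.68, 2.299 and 6.93 CPM in non-treated mice (log2 fold change 2.00 ± 0.42, adjusted p = 0.00585). Per2 had 15.9, 15.2, 17.9 and 22.98 CPM in DEX mice, against 2.69, 2.55, 9.43, 3.76 and 7.56 CPM in non-treated mice (log2 fold change 1.80 ± 0.32, adjusted p = 0.00257). Dbp encodes a transcription factor of clock output at D-boxes. It had 180.1, 182, 206 and 162 CPM in DEX mice, against 37.6, 34.5, 98.9, 44.3 and 92.4 CPM in non-treated mice (log2 fold change 1.57 ± 0.29, adjusted p = 0.00272), and shares 16.9% of its words with Sphk2, which overlaps it on the opposite strand. For each of these the non-treated mice fell into lower values in mice 1, 2 and 4 and higher ones in mice 3 and 5, and Arntl and Npas2 were lowest in the same mice 3 and 5. Per1 had 22.8, 22.3, 25.5 and 24.2 CPM in DEX mice, against 10.3, 7.45, 24.5, 11.2 and 16.3 CPM in non-treated mice: non-treated mouse 3 lay inside the DEX range and the gene just missed the threshold (log2 fold change 0.77 ± 0.26, adjusted p = 0.0536), while without that mouse it passed (log2 1.07, adjusted p = 0.00171). Cry2 rose, with 50.2, 49.3, 57.3 and 40.6 CPM in DEX mice, against 28.6, 28.8, 33.5, 25.2 and 33.1 CPM in non-treated mice (log2 fold change 0.72 ± 0.10, adjusted p = 0.000533). Hlf, another D-box factor, had 27.6, 28.9, 29.2 and 27.8 CPM in DEX mice, against 15.99, 14.9, 20.1, 15.4 and 20.04 CPM in non-treated mice (log2 fold change 0.72 ± 0.09, adjusted p = 0.000289), and Nampt, the clock-controlled enzyme of NAD synthesis, had 179, 189.8, 179 and 202 CPM in DEX mice, against 132, 142, 135, 139 and 153 CPM in non-treated mice (log2 fold change 0.42 ± 0.06, adjusted p = 0.000399).

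**Figure D2:**
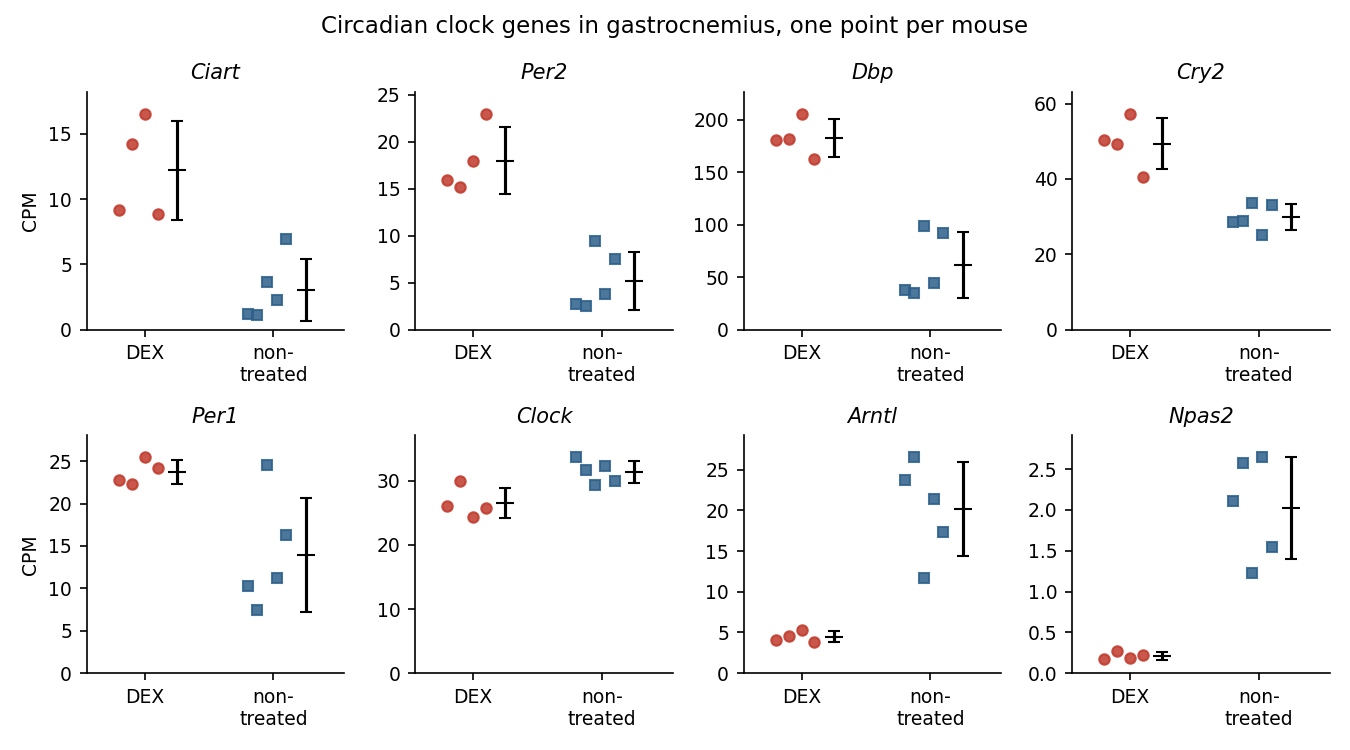
CPM of 8 clock genes, 1 panel each, with DEX mice (n = 4) left of non-treated mice (n = 5). Points are libraries and bars the mean ± SD. Ciart, Per2, Dbp and Cry2 lie higher in every DEX library, Per1 overlaps through non-treated mouse 3, and Arntl and Npas2 lie lower in every DEX library.

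In all, 15 of 26 tested clock genes rose and 3 fell, against 9.94% and 9.8% of all genes, and their median log2 fold change was 0.42. Leaving out each library in turn gave 14 to 16 rises and 2 or 3 falls. Of 10 repressors, 7 rose and none fell, and of 8 output genes, 5 rose. Among the activators, Rora, which stimulates Arntl through ROR elements, rose by 0.54, and Arntl, Npas2 and Clock fell. Cry1 and the Rev-erb gene Nr1d1 did not pass, at -0.05 and 0.21 on the log2 scale. The hour at which each muscle was removed is not given in the sources used here, and a difference in hour between the groups and the effect of DEX cannot be told apart from these libraries.

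Growth signalling moved on both sides of the balance. Mstn encodes the growth inhibitor myostatin. It had 118, 116, 117 and 117 CPM in DEX mice, against 87.99, 71.6, 80.2, 75.7 and 117 CPM in non-treated mice. The DEX mice were almost identical to each other and non-treated mouse 5 reached their level (log2 fold change 0.44 ± 0.12, adjusted p = 0.0208), and without non-treated mouse 4 the call was just lost (log2 0.39, adjusted p = 0.0501). Smad7 encodes the inhibitory Smad. It rose with 10.1, 7.73, 10.03 and 9.29 CPM in DEX mice, against 6.803, 6.23, 5.71, 6.48 and 6.39 CPM in non-treated mice (log2 fold change 0.55 ± 0.09, adjusted p = 0.00154). Fst encodes follistatin, which binds and blocks myostatin. It fell with 1.61, 2.13, 2.35 and 2.25 CPM in DEX mice, against 2.86, 3.34, 3.14, 3.66 and 4.102 CPM in non-treated mice (log2 fold change -0.71 ± 0.14, adjusted p = 0.00479). In the myostatin, activin and Smad list 7 of 28 genes rose and 2 fell (1 fell without non-treated mouse 2, 4 or 5 or DEX mouse 1 or 2, and 4 without DEX mouse 4). Igf1 encodes the anabolic growth factor. It had 21.9, 22.8, 22.2 and 51.4 CPM in DEX mice, against 16.4, 19.6, 17.6, 16.9 and 19.03 CPM in non-treated mice. Its rise (log2 fold change 0.73 ± 0.23, adjusted p = 0.04) leaned on DEX mouse 4: without that mouse the log2 value was 0.32 (adjusted p = 0.00816), and without any 1 of the 5 non-treated mice the adjusted p was 0.0585 to 0.08. Igf1r, its receptor, had 20.96, 19.6, 21.6 and 19.4 CPM in DEX mice, against 15.7, 14.4, 14.1, 14.8 and 16.5 CPM in non-treated mice and rose without overlap (log2 fold change 0.43 ± 0.06, adjusted p = 0.000723). Igfbp5, the main IGF-binding protein of muscle, fell to 449.7, 362, 339.7 and 436 CPM in DEX mice, against 825, 683, 690.3, 737 and 1111 CPM in non-treated mice (log2 fold change -1.03 ± 0.14, adjusted p = 0.000503). Eif4ebp1 encodes the repressor of translation initiation that mTOR inactivates. It rose, with 70.6, 64.6, 63.2 and 49.98 CPM in DEX mice, against 44.9, 42.9, 50.8, 39.2 and 46.03 CPM in non-treated mice (log2 fold change 0.47 ± 0.09, adjusted p = 0.00487). The IGF and mTOR list split evenly, with 7 of 33 genes higher and 7 lower, against 9.94% and 9.8% of all genes.

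Genes of the contractile apparatus and the endplate changed in part. Of the 4 adult myosin heavy chains only Myh1, of fast type IIx fibres, passed, with 2109, 1699, 2501 and 2447 CPM in DEX mice, against 3010.5, 2643, 2823, 2865 and 2762 CPM in non-treated mice (log2 fold change -0.37 ± 0.10, adjusted p = 0.0215). It lost the call without DEX mouse 1 (log2 -0.35, adjusted p = 0.0621), and 42.9% of its words are shared with its myosin neighbours. Myh2, Myh4 and Myh7 had log2 fold changes of -0.31, -0.14 and -0.42 and did not pass, while without non-treated mouse 5 Myh2 did (log2 -0.44, adjusted p = 0.0326), and so did Myh7 without DEX mouse 1 (log2 -0.64, adjusted p = 0.044). Actn3 encodes the alpha-actinin of fast fibres. It rose, with 9758, 9456, 10313 and 8708 CPM in DEX mice, against 7196, 7390.4, 7331, 7108 and 7059.6 CPM in non-treated mice (log2 fold change 0.41 ± 0.06, adjusted p = 0.000511). Pvalb encodes the calcium buffer parvalbumin of fast fibres. It fell, with 6532, 5923, 6425 and 7062 CPM in DEX mice, against 8740.4, 8399.6, 8403, 8654 and 7785 CPM in non-treated mice (log2 fold change -0.37 ± 0.06, adjusted p = 0.00149). So 2 markers of the same fibre class went opposite ways. Of 18 fast-fibre genes 5 rose and 5 fell, against 9.94% and 9.8% of all genes. Of 14 slow-fibre genes 1 fell, Myl3, a ventricular and slow myosin light chain, with 122, 63.7, 104 and 102 CPM in DEX mice, against 152, 169.5, 154, 165 and 128 CPM in non-treated mice (log2 fold change -0.65 ± 0.15, adjusted p = 0.00984), and without DEX mouse 1 there were 3. Mybph, a myosin-binding protein that shares 46.3% of its words with Adora1 on the opposite strand, fell with 29.2, 35.6, 45.5 and 63.97 CPM in DEX mice, against 122, 101, 162, 144 and 87.98 CPM in non-treated mice (log2 fold change -1.50 ± 0.22, adjusted p = 0.00087). Actc1 encodes the cardiac actin that is also expressed in developing muscle. It had 90.4, 78.1, 85.3 and 219 CPM in DEX mice, against 245, 191, 390.0, 418 and 175 CPM in non-treated mice. DEX mouse 4 lay inside the non-treated range (log2 fold change -1.26 ± 0.34, adjusted p = 0.0231), and the call was lost without non-treated mouse 4 or DEX mouse 1, 2 or 3 (adjusted p of 0.054 to 0.0703). Of 7 tested genes of developing fibres, which include Mybph and Actc1, 3 fell and 2 rose. Myl4, an embryonic myosin light chain, also fell, by 0.92. Tnnt2, the cardiac troponin T, and Ankrd1, a stretch-responsive ankyrin repeat protein, rose by 0.61 and 0.75. These 2 rises were 1 without non-treated mouse 2 or 3 or DEX mouse 1 or 2, and none without non-treated mouse 1 or 4 or DEX mouse 3. Of 18 genes of the acetylcholine receptor and of denervation 3 rose and 3 fell, and 1 rose without DEX mouse 3. Chrna1, the acetylcholine receptor alpha subunit that rises on denervation, had 17.9, 18.04, 18.7 and 17.3 CPM in DEX mice, against 13.2, 12.4, 15.6, 15.7 and 15.8 CPM in non-treated mice (log2 fold change 0.31 ± 0.08, adjusted p = 0.0191; adjusted p = 0.0554 without DEX mouse 3). The delta and epsilon subunit genes Chrnd and Chrne fell, by 0.74 and 0.40. Musk encodes the kinase that clusters the receptor. It had 13.9, 15.4, 14.96 and 22.9 CPM in DEX mice, against 8.299, 9.23, 8.34, 11.3 and 16.4 CPM in non-treated mice (log2 fold change 0.65 ± 0.20, adjusted p = 0.0417) and lost its call in 7 of the 9 fits that left out 1 library, keeping it without non-treated mouse 5 or DEX mouse 1. Lrp4, the partner of Musk that binds agrin, rose by 0.44. Gadd45a rises strongly on denervation. It fell, with 8.06, 9.11, 10.2 and 8.41 CPM in DEX mice, against 13.4, 10.7, 11.9, 11.2 and 13.6 CPM in non-treated mice (log2 fold change -0.44 ± 0.10, adjusted p = 0.0071).

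A part of the nuclear genes of oxidative phosphorylation fell by small amounts, and a part of the cytosolic ribosomal protein genes rose. Of 76 nuclear genes of oxidative phosphorylation 22 fell and 1 rose, with a median of -0.18. The falls spread over the complexes: 6 of 36 genes of complex I, 2 of 4 of complex II, 4 of 9 of complex III, 5 of 12 of complex IV and 5 of 15 of complex V. Their count moved with single libraries, to 12 without non-treated mouse 1 or 2, 10 without DEX mouse 2, 14 without DEX mouse 3 and 36 without DEX mouse 4. Cox7a1 encodes the heart and muscle form of a complex IV subunit. It had 131, 117, 127 and 148 CPM in DEX mice, against 179.5, 179, 169.8, 188 and 158 CPM in non-treated mice (log2 fold change -0.42 ± 0.07, adjusted p = 0.00172). Sdhb encodes the iron-sulphur subunit of complex II. It had 171, 137, 163 and 177 CPM in DEX mice, against 231, 215, 212, 207 and 196 CPM in non-treated mice (log2 fold change -0.39 ± 0.07, adjusted p = 0.00337). Ndufs4, a complex I subunit, was the exception that rose, with 122, 101, 108 and 151 CPM in DEX mice, against 98.8, 95.5, 90.5, 82.5 and 89.9 CPM in non-treated mice (log2 fold change 0.40 ± 0.10, adjusted p = 0.0166). Of 13 genes encoded in mitochondrial DNA, 1 rose and none fell, and none rose without non-treated mouse 3, 4 or 5 or DEX mouse 4. Of 70 mitochondrial ribosomal protein genes 1 rose and 5 fell, against 9.94% and 9.8% of all genes. There were 1 to 8 falls and no or 1 rise as each library was left out. The falls were 3 without non-treated mouse 1, 3 or 4 or DEX mouse 3, 1 without non-treated mouse 2 or DEX mouse 2 and 8 without DEX mouse 4, and the rise was lost without non-treated mouse 2, 4 or 5 or DEX mouse 1 or 3. Ppargc1a encodes the coactivator PGC-1alpha that drives mitochondrial biogenesis. It had 29.5, 28.9, 27.1 and 31.1 CPM in DEX mice, against 25.03, 26.4, 23.8, 29.5 and 22.6 CPM in non-treated mice and did not pass (log2 fold change 0.19 ± 0.07, adjusted p = 0.0875), though it did without non-treated mouse 4 (log2 0.25, adjusted p = 0.0233). Sirt1 encodes an NAD-dependent deacetylase that activates it. It had 9.84, 9.18, 8.65 and 9.42 CPM in DEX mice, against 7.86, 8.44, 8.63, 10.2 and 9.14 CPM in non-treated mice (log2 fold change 0.07 ± 0.08, adjusted p = 0.608). Of 58 cytosolic ribosomal protein genes 14 rose and none fell (median 0.13), against 9.94% and 9.8% of all genes. The rises were 7 without non-treated mouse 4, 6 without DEX mouse 1 and 25 without DEX mouse 4. Rps24, of the small subunit, had 178, 194, 215 and 181 CPM in DEX mice, against 149.8, 159, 154, 157 and 151 CPM in non-treated mice (log2 fold change 0.31 ± 0.06, adjusted p = 0.00259), and Rpl11, of the large subunit, had 123, 116, 114 and 125 CPM in DEX mice, against 105, 108, 99.4, 92.95 and 90.1 CPM in non-treated mice (log2 fold change 0.27 ± 0.06, adjusted p = 0.00813).

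Fuel genes were mixed. Pdk4 blocks pyruvate entry into mitochondria and is a known glucocorticoid target. It had 46.5, 80.2, 99.1 and 78.4 CPM in DEX mice, against 80.6, 230.4, 66.2, 198 and 230.0 CPM in non-treated mice, the non-treated values spreading over both sides of the DEX ones (log2 fold change -1.08 ± 0.36, adjusted p = 0.0542). It passed without non-treated mouse 1 (log2 -1.25, adjusted p = 0.0278) or mouse 3 (log2 -1.28, adjusted p = 0.0117). Of 38 genes of fatty acid use 5 rose and 7 fell, with 3 falls without non-treated mouse 2 or DEX mouse 2 and 4 without non-treated mouse 4. Among the 19 of mitochondrial oxidation 6 fell and 2 rose. The falls included Hadh, which serves the third step of beta-oxidation, and the thiolase genes Hadhb and Acaa2, by 0.41, 0.28 and 0.24. The rises were Eci2, an isomerase for unsaturated chains, by 0.66, and Acadl. Acadl oxidises long-chain fatty acids. It rose, with 225, 196, 212 and 207 CPM in DEX mice, against 165, 183, 179.9, 179 and 176 CPM in non-treated mice (log2 fold change 0.25 ± 0.05, adjusted p = 0.00518). Slc16a9 encodes a carnitine and monocarboxylate carrier. It fell, with 4.097, 4.64, 4.33 and 4.14 CPM in DEX mice, against 13.5, 15.4, 7.58, 12.96 and 11.7 CPM in non-treated mice (log2 fold change -1.51 ± 0.17, adjusted p = 0.000124). Odc1 encodes the first enzyme of polyamine synthesis. It had 218, 242, 275 and 368 CPM in DEX mice, against 138, 143, 131, 122 and 184 CPM in non-treated mice (log2 fold change 0.94 ± 0.15, adjusted p = 0.00107), and Sms, which makes spermine, had 209, 193, 188 and 234 CPM in DEX mice, against 158, 157, 154, 151 and 170.0 CPM in non-treated mice (log2 fold change 0.38 ± 0.07, adjusted p = 0.00175). Both rose, among 3 of 10 polyamine genes. Nmrk2 encodes the muscle kinase that makes NAD from nicotinamide riboside. It had 143, 47.8, 47.8 and 103 CPM in DEX mice, against 19.5, 46.5, 28.9, 35.8 and 29.8 CPM in non-treated mice (log2 fold change 1.41 ± 0.32, adjusted p = 0.00945), DEX mice 1 and 4 being well above mice 2 and 3 and the lowest DEX value only just above the highest non-treated one.

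Genes of fat cells and of fat synthesis were higher. Cidec encodes a lipid droplet protein of white adipocytes. It had 13.7, 14.2, 14.8 and 20.2 CPM in DEX mice, against 1.87, 5.18, 4.19, 3.45 and 5.04 CPM in non-treated mice (log2 fold change 1.99 ± 0.22, adjusted p = 0.000106). Retn encodes the adipocyte hormone resistin. It had 10.5, 11.8, 11.8 and 12.1 CPM in DEX mice, against 3.47, 6.04, 4.98, 5.33 and 4.74 CPM in non-treated mice (log2 fold change 1.23 ± 0.12, adjusted p = 6.09e-05). Aqp7, the glycerol channel of fat cells that capillaries also carry, went the other way, with 9.44, 7.97, 9.698 and 9.59 CPM in DEX mice, against 13.5, 14.4, 10.2, 11.6 and 12.8 CPM in non-treated mice (log2 fold change -0.45 ± 0.10, adjusted p = 0.00982). Of 15 tested adipocyte markers 11 rose and 2 fell, with a median of 1.02, and 11 rose whichever library was left out. The summed level of the list was 449, 416, 452 and 518 CPM in DEX mice, against 313, 401, 373, 364 and 382 CPM in non-treated mice. The hormones Adipoq and Lep rose by 1.56 and 1.53, and Plin1, which coats the fat droplet, by 1.33. In the synthesis pathway, Fasn, the fatty acid synthase, had 194, 225, 177 and 159 CPM in DEX mice, against 57.7, 87.7, 76.01, 65.1 and 66.3 CPM in non-treated mice (log2 fold change 1.42 ± 0.12, adjusted p = 1.58e-05). Agpat2 makes phosphatidic acid. It had 12.4, 13.5, 12.9 and 15.4 CPM in DEX mice, against 4.35, 5.31, 5.67, 5.08 and 5.31 CPM in non-treated mice (log2 fold change 1.40 ± 0.09, adjusted p = 2.25e-06). Thrsp encodes a lipogenic regulator. It had 21.9, 21.2, 21.3 and 27.6 CPM in DEX mice, against 10.0, 13.1, 11.7, 10.8 and 11.1 CPM in non-treated mice (log2 fold change 1.02 ± 0.10, adjusted p = 3.83e-05). Acly, Acaca, Scd1, Dgat2 and Srebf1 also rose, by 0.93, 0.75, 1.10, 0.52 and 0.75 on the log2 scale, and in all 11 of 20 genes rose and none fell (8 to 11 with each library left out). Cebpa encodes the adipogenic C/EBP factor. It rose with 10.3, 10.8, 11.3 and 13.04 CPM in DEX mice, against 4.29, 7.76, 6.25, 6.44 and 6.22 CPM in non-treated mice (log2 fold change 0.87 ± 0.14, adjusted p = 0.00106), whereas Cebpb and Cebpd had log2 fold changes of -0.31 and -0.04 and did not pass. The part of fat cells in the rises of the synthesis genes was not tested.

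The collagen genes fell together. Col1a1 encodes a chain of fibrillar type I collagen. It had 71.3, 61.5, 39.2 and 62.4 CPM in DEX mice, against 141, 175, 194, 235 and 189 CPM in non-treated mice (log2 fold change -1.67 ± 0.17, adjusted p = 5.84e-05). Col3a1 had 33.9, 35.5, 23.4 and 39.7 CPM in DEX mice, against 111, 101, 111, 116 and 98.7 CPM in non-treated mice (log2 fold change -1.70 ± 0.12, adjusted p = 4.44e-06), a 3.25-fold difference, and Col1a2 had 85.4, 72.9, 45.8 and 75.2 CPM in DEX mice, against 135, 189.9, 189.7, 236 and 198 CPM in non-treated mice (log2 fold change -1.44 ± 0.18, adjusted p = 0.000214). DEX mouse 3 was the lowest for all 3 chains, and even the highest DEX value was under the lowest non-treated one. Col15a1, of the zone between basement membrane and interstitium, fell less, with 19.3, 19.2, 20.7 and 21.8 CPM in DEX mice, against 33.6, 34.1, 31.7, 37.02 and 30.998 CPM in non-treated mice (log2 fold change -0.72 ± 0.06, adjusted p = 2.37e-05). Of 26 tested chains 21 fell and none rose, a median of -0.72, and 18 to 21 fell with each library left out. The chains that did not pass were Col8a2, Col4a3, Col12a1, Col16a1 and Col13a1. Summed over the list, DEX mice had 539, 532, 447 and 549 CPM, against 935, 1007, 1013, 1184 and 982 CPM in non-treated mice. Beyond the collagens, 13 of 37 other matrix genes fell and 1 rose. Fbn1 encodes the microfibril protein fibrillin 1. It had 16.6, 18.2, 13.4 and 17.1 CPM in DEX mice, against 37.3, 42.9, 35.4, 40.8 and 29.1 CPM in non-treated mice (log2 fold change -1.18 ± 0.11, adjusted p = 4.41e-05). Mmp2 encodes a gelatinase. It had 23.5, 21.7, 16.97 and 20.96 CPM in DEX mice, against 35.9, 46.4, 37.01, 43.05 and 41.9 CPM in non-treated mice (log2 fold change -0.98 ± 0.10, adjusted p = 5.83e-05). Loxl2, a collagen cross-linker that shares 46.4% of its words with other genes, had 6.72, 6.19, 5.71 and 7.63 CPM in DEX mice, against 13.7, 15.3, 12.2, 14.7 and 11.4 CPM in non-treated mice (log2 fold change -1.04 ± 0.11, adjusted p = 8.08e-05).

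Tendon and cartilage markers moved with the collagens but varied more between mice. Cilp2 encodes a cartilage matrix protein. It had 3.22, 1.86, 1.45 and 1.34 CPM in DEX mice, against 4.42, 13.4, 7.84, 11.4 and 8.81 CPM in non-treated mice (log2 fold change -2.22 ± 0.33, adjusted p = 0.000782). Chad encodes chondroadherin. It had 10.7, 6.94, 5.93 and 4.24 CPM in DEX mice, against 8.401, 30.8, 17.5, 31.8 and 20.9 CPM in non-treated mice (log2 fold change -1.66 ± 0.35, adjusted p = 0.00698), and Tnmd, the tendon protein tenomodulin, had 3.76, 2.34, 1.04 and 1.402 CPM in DEX mice, against 3.64, 7.36, 4.73, 9.68 and 7.296 CPM in non-treated mice (log2 fold change -1.61 ± 0.35, adjusted p = 0.00743). For both, non-treated mouse 1 lay inside the DEX range. Of 14 tested markers 7 fell and 1 rose, with 4 falls without DEX mouse 3 and 11 without non-treated mouse 1, and the summed level was 145 to 286 CPM in DEX mice and 215 to 569 CPM in non-treated mice. How much tendon each sample held, and its part in the fall of the collagens, was not tested. Markers of fibro-adipogenic progenitors, the cells that make most muscle collagen, split 3 higher and 3 lower among 14 (the higher count was 1 without non-treated mouse 1, 2 or 5 or DEX mouse 1, 2 or 4, and the lower count 5 without DEX mouse 2 or 4), and their summed level was 867 to 1001 CPM in DEX mice and 947 to 1135 CPM in non-treated mice. Among the falls was Serpinf1, encoding the secreted anti-angiogenic factor PEDF, with 24.6, 25.3, 18.9 and 16.7 CPM in DEX mice, against 37.7, 60.6, 46.5, 63.6 and 56.01 CPM in non-treated mice (log2 fold change -1.30 ± 0.16, adjusted p = 0.000232).

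Endothelial genes were lower by small amounts, with 1 large fall. Aplnr encodes the apelin receptor of vessels. It had 3.09, 3.51, 3.096 and 2.97 CPM in DEX mice, against 16.9, 13.3, 14.4, 13.1 and 13.2 CPM in non-treated mice (log2 fold change -2.16 ± 0.10, adjusted p = 1.65e-07), 4.47-fold less in the DEX mice and the smallest adjusted p among the falls given here. Vwf encodes von Willebrand factor. It had 16.1, 17.3, 16.6 and 17.9 CPM in DEX mice, against 21.3, 25.6, 29.6, 23.7 and 26.5 CPM in non-treated mice (log2 fold change -0.58 ± 0.08, adjusted p = 0.00078), and Ptprb, the vascular endothelial phosphatase, had 41.5, 41.1, 41.5 and 42.02 CPM in DEX mice, against 53.2, 51.4, 48.5, 49.5 and 52.9 CPM in non-treated mice (log2 fold change -0.30 ± 0.04, adjusted p = 0.000777). None of the 3 overlapped between the groups, which also held for 2150 of the 2722 genes that passed. Over the list, 10 of 18 markers fell and none rose, with a median of -0.30, and 10 to 12 fell with each library left out. The summed level was 453 to 467 CPM in DEX mice and 532 to 553 CPM in non-treated mice. Tmem100, an endothelial membrane protein that answers BMP signals, was outside that list and rose, with 51.2, 41.1, 45.1 and 48.1 CPM in DEX mice, against 12.8, 13.2, 8.67, 11.2 and 23.9 CPM in non-treated mice (log2 fold change 1.73 ± 0.21, adjusted p = 0.000231). Of 10 smooth muscle and pericyte markers 1 fell and none rose, although without non-treated mouse 3 there were 3 rises.

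**Figure D3:**
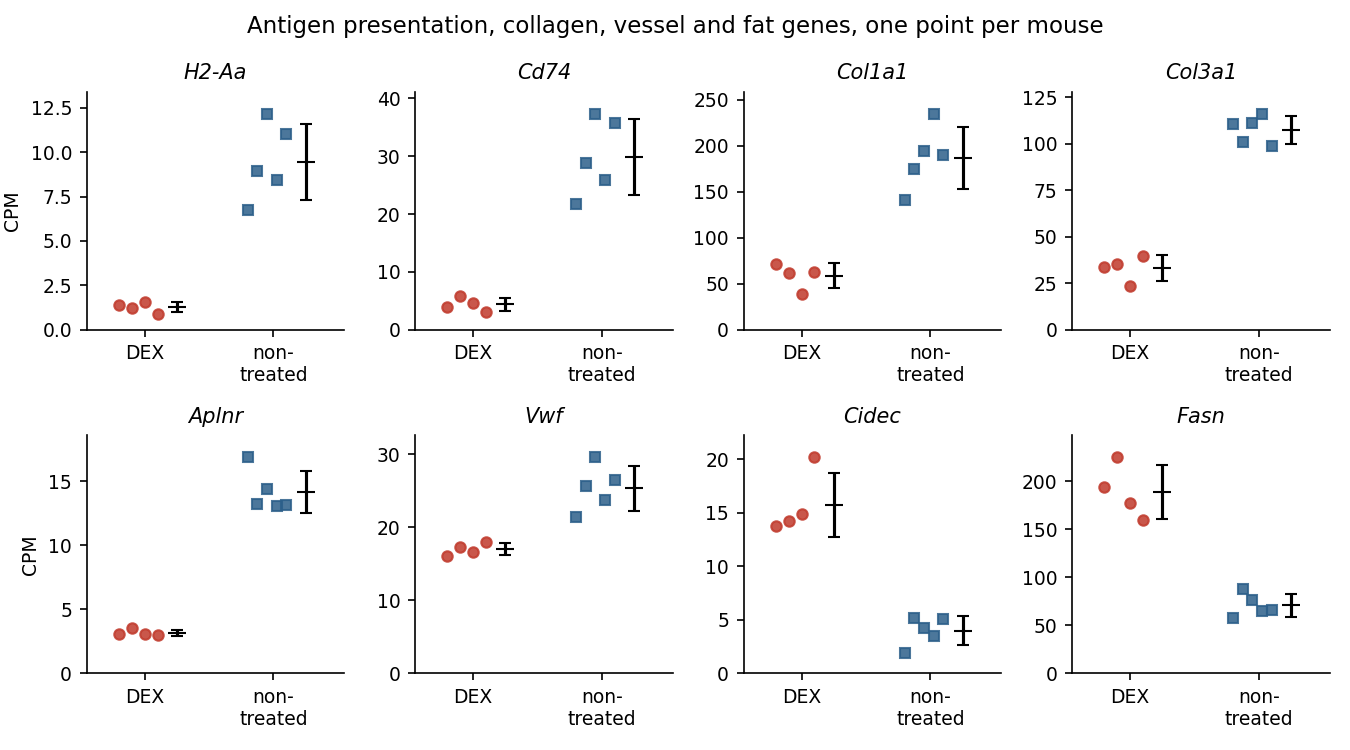
CPM of 8 genes of antigen presentation, collagen, vessel and fat, 1 panel each, with DEX mice (n = 4) left of non-treated mice (n = 5). Points are libraries and bars the mean ± SD. H2-Aa, Cd74, Col1a1, Col3a1, Aplnr and Vwf are lower in every DEX library, and Cidec and Fasn are higher in every DEX library.

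MHC class II, which presents antigen on dendritic cells, macrophages and B cells, had the lowest median among the lists counted here. H2-Aa, a class II alpha chain at chr17:34282744-34287823, had 1.38, 1.24, 1.57 and 0.8803 CPM in DEX mice, against 6.73, 8.93, 12.2, 8.43 and 11.03 CPM in non-treated mice (log2 fold change -2.90 ± 0.20, adjusted p = 4.23e-06). H2-Ab1, its beta chain, had 1.48, 2.75, 1.902 and 1.21 CPM in DEX mice, against 8.33, 11.01, 16.97, 10.1 and 12.5 CPM in non-treated mice (log2 fold change -2.69 ± 0.25, adjusted p = 3.24e-05), and H2-Eb1 had 0.604, 1.34, 1.12 and 0.782 CPM in DEX mice, against 4.59, 5.58, 7.80, 6.09 and 7.699 CPM in non-treated mice (log2 fold change -2.72 ± 0.23, adjusted p = 1.46e-05). Cd74 encodes the invariant chain that escorts class II molecules. It had 3.896, 5.88, 4.55 and 3.13 CPM in DEX mice, against 21.7, 28.9, 37.4, 25.8 and 35.7 CPM in non-treated mice (log2 fold change -2.78 ± 0.20, adjusted p = 4.23e-06). The non-treated values stood several times above the DEX values in every mouse, with non-treated mouse 3 the highest for each chain. Of 10 presentation genes 7 had enough counts to be tested, and these 7 fell, with a median log2 fold change of -2.69. Since a gene could pass that filter through the non-treated mice alone, neither the count nor the median is support for the direction. The same limit holds for the median of the whole list. Among them Ciita, the master activator of class II transcription, fell by 2.54, and H2-DMa and H2-DMb1, which load peptide, fell by 1.02 and 1.50 on the log2 scale. The list with dendritic markers summed to 14.004, 19.3, 16.3 and 14.5 CPM in DEX mice, against 53.3, 66.0, 89.2, 61.9 and 78.4 CPM in non-treated mice. The dendritic markers that could be tested, Cd209a, Clec9a and Zbtb46, had log2 fold changes of -0.91, -0.51 and -0.28 and did not pass. Macrophage markers and chemokines summed to 215 to 285 CPM in DEX mice and 253 to 296 CPM in non-treated mice, and 3 of 25 rose and 3 fell (8 fell without DEX mouse 2, and 1 without DEX mouse 3 or 4 or non-treated mouse 4). Only 1 of 22 lymphocyte markers and 1 of 11 neutrophil markers had enough counts to be tested, and neither passed.

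The summed level of interferon-stimulated genes was highest in a single control. Their summed level was 162 to 183 CPM in DEX mice, against 154, 166, 624, 167 and 213 CPM in non-treated mice, so that non-treated mouse 3 held several times the level of any other mouse. Of 36 tested genes 3 fell and 1 rose, with a median of -0.43 that includes non-treated mouse 3. There were 5 falls without non-treated mouse 1, and 5 falls and 2 rises without non-treated mouse 3. Rsad2 encodes the antiviral protein viperin. It had 1.75, 1.58, 1.79 and 1.56 CPM in DEX mice, against 3.33, 4.36, 10.9, 3.66 and 4.03 CPM in non-treated mice (log2 fold change -1.65 ± 0.35, adjusted p = 0.00614), and Cmpk2, its neighbour in function and in the genome, had 2.35, 2.17, 2.28 and 1.597 CPM in DEX mice, against 2.86, 3.497, 5.20, 3.55 and 3.97 CPM in non-treated mice (log2 fold change -0.86 ± 0.18, adjusted p = 0.00541). Both were lower in every DEX mouse than in every non-treated one. Ifi27l2a went up, with 18.6, 16.9, 16.2 and 21.6 CPM in DEX mice, against 4.69, 9.48, 9.46, 9.19 and 8.44 CPM in non-treated mice (log2 fold change 1.15 ± 0.17, adjusted p = 0.000701). MHC class I genes summed to 225 to 239 CPM in DEX mice, against 236, 239, 440, 266 and 342 CPM in non-treated mice. There 4 of 11 fell, but only 1 without non-treated mouse 5 or without any 1 of the DEX mice. Of 8 tested chemokines 3 rose and 2 fell, against 9.94% and 9.8% of all genes, with a median of 0.05. Those that fell were Cxcl12, which retains progenitor cells in their niches, and Cxcl14, by 0.31 and 0.29 on the log2 scale. Among the rises, Cxcl13, which attracts B cells, had 1.11, 1.37, 1.08 and 1.21 CPM in DEX mice, against 0.238, 0.4601, 0.289, 0.174 and 0.504 CPM in non-treated mice (log2 fold change 1.81 ± 0.26, adjusted p = 0.000649), and Ccl11, the eosinophil attractant eotaxin, had 17.6, 19.8, 20.7 and 21.2 CPM in DEX mice, against 13.6, 14.05, 11.2, 12.7 and 11.5 CPM in non-treated mice (log2 fold change 0.65 ± 0.08, adjusted p = 0.000287). Ccl2 attracts monocytes. It had 0.302, 1.03, 0.485 and 3.49 CPM in DEX mice, against 0.1701, 0.245, 0.361, 0.279 and 0.101 CPM in non-treated mice (log2 fold change 2.53 ± 0.69, adjusted p = 0.023), and its call was lost without DEX mouse 4 (log2 1.38, adjusted p = 0.0533).

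Stress and signalling genes changed in smaller sets. Of 21 tested Nr4a and immediate-early genes 6 rose and none fell, against 9.94% and 9.8% of all genes, with a median of 0.41. Nr4a3 encodes an orphan nuclear receptor induced within minutes of many stimuli. It had 10.4, 2.82, 2.95 and 18.7 CPM in DEX mice, against 1.16, 0.828, 2.31, 1.85 and 1.14 CPM in non-treated mice. DEX mice 1 and 4 were several times higher than mice 2 and 3 (log2 fold change 2.60 ± 0.54, adjusted p = 0.00585), and without DEX mouse 4 the log2 value was 1.91. Ier3 had 7.46, 7.53, 7.87 and 9.62 CPM in DEX mice, against 3.095, 3.44, 4.66, 4.21 and 4.94 CPM in non-treated mice, an even rise in every DEX mouse (log2 fold change 1.00 ± 0.14, adjusted p = 0.000503). Hspa5 encodes the chaperone BiP of the endoplasmic reticulum. It had 138, 136, 143 and 149.5 CPM in DEX mice, against 121, 117, 130.3, 126 and 119.8 CPM in non-treated mice (log2 fold change 0.21 ± 0.05, adjusted p = 0.0112), and Fkbp4, a co-chaperone of steroid receptors, had 131, 131, 133 and 138 CPM in DEX mice, against 113, 114, 118, 115 and 109 CPM in non-treated mice (log2 fold change 0.23 ± 0.04, adjusted p = 0.00283). Psat1, of serine synthesis, had 3.49, 2.82, 4.18 and 4.17 CPM in DEX mice, against 1.67, 1.902, 2.24, 1.85 and 2.12 CPM in non-treated mice (log2 fold change 0.91 ± 0.14, adjusted p = 0.00107). Its list, ATF4 and serine synthesis, had 4 rises and 3 falls among 21 tested genes, the falls being Slc7a1, Vldlr and Shmt2, by 0.53, 0.43 and 0.18. There were 2 rises without non-treated mouse 5 or DEX mouse 1 or 3, 1 fall without non-treated mouse 2 or DEX mouse 1 or 2, and no rise with the stricter filter on low counts. Tpx2 assembles the mitotic spindle. It had 16.6, 16.6, 18.7 and 8.38 CPM in DEX mice, against 3.95, 4.85, 2.93, 4.25 and 4.03 CPM in non-treated mice (log2 fold change 1.90 ± 0.21, adjusted p = 9.87e-05). It is not in the list of cell cycle genes, where 1 of 11 tested genes rose, the cell cycle inhibitor Cdkn1a, and 1 fell, the inhibitor Cdkn1c. The call of Cdkn1a was lost without non-treated mouse 2, 3 or 4 or DEX mouse 1 or 2, and that of Cdkn1c without non-treated mouse 1, 2, 3 or 4 or DEX mouse 1 or 3.

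**Figure D4:**
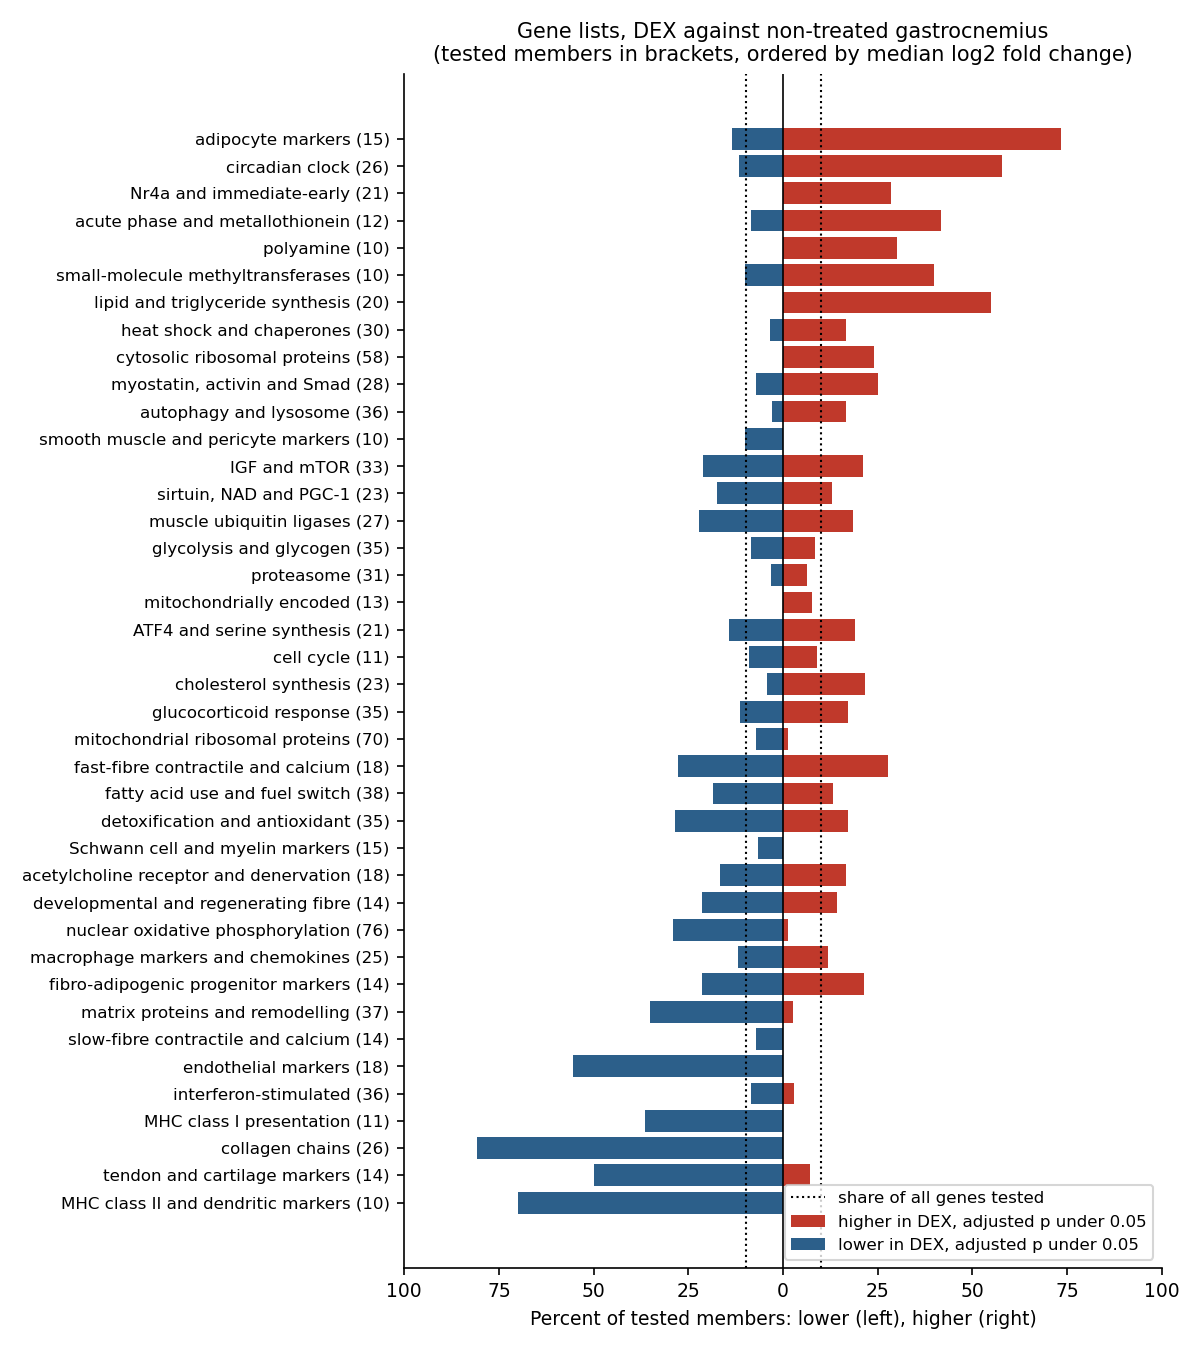
Percent of tested members that rose (right) and fell (left) in DEX muscle for each gene list with at least 10 tested members. Dotted lines mark the 9.94% and 9.8% of all 13786 genes that rose and fell. Adipocyte, clock and lipid synthesis genes stand furthest to the higher side, and collagen, class II and endothelial genes furthest to the lower side. Class II genes could pass the filter on low counts through the non-treated mice alone, so their place is no support for the direction.

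The changes could also be set beside 34 gastrocnemius libraries of mice that had received the same DEX course with an extract or resveratrol and did not enter the comparison. They share the 5 non-treated mice with it, so the values are a description. Of the 98 genes given in this text that passed, 26 lay beyond the non-treated range, in the direction of the DEX mice, in all 34 of these libraries, and 36 did so in 33 of the 34. For 33 of those 36 the exception was the same library, mouse 1 of the group given 100 mg/kg of the extract JGT02. On the scale of the 43 gastrocnemius libraries, Lcn2 was at 36.8, 81.5 and 139 CPM (lowest, median and highest) in the 34, Arntl at 1.71, 3.27 and 5.48 CPM and H2-Aa at 0.492, 1.07 and 22.1 CPM, that 1 library being the highest for H2-Aa. The changes that were not carried by most of these mice included Mstn (beyond the non-treated range in 2 of 34), Musk and Nr4a3 (4 each), Trim63 (6), Mt1 (7) and Igf1 (16). Fbxo32 was under the non-treated range in 22 of 34.

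The soleus, a slow postural muscle taken from the same groups (4 DEX and 5 non-treated libraries), gave a test of which DEX changes differed between muscles. In a fit of both muscles the DEX change differed between them for 3460 of 14453 genes (23.9%), 2093 with the higher and 1367 with the lower log2 value in gastrocnemius. Of the genes that passed in the gastrocnemius comparison, 2717 had a value in that fit, and 1062 of these differed from soleus. Of the same 2717, 948 also passed in soleus with the same sign and 419 with the opposite sign. The 2717 were picked on gastrocnemius libraries that also enter this fit. Pnmt changed by log2 4.05 in gastrocnemius and 3.02 in soleus, a difference of 1.03 ± 0.25 (adjusted p = 0.00645), a rise in both. Chd9 changed by log2 2.28 in gastrocnemius and 1.09 in soleus, a difference of 1.20 ± 0.22 (adjusted p = 0.000974), and Aldh1a1 by log2 1.55 in gastrocnemius and 0.66 in soleus, a difference of 0.89 ± 0.17 (adjusted p = 0.0012). Tpx2 changed by log2 1.91 in gastrocnemius and 0.21 in soleus, a difference of 1.70 ± 0.40 (adjusted p = 0.0054), the larger value being in gastrocnemius. A ligase gene and an autophagy gene had opposite signs in the 2 muscles: Nedd4 changed by log2 0.28 in gastrocnemius and -0.34 in soleus, a difference of 0.62 ± 0.09 (adjusted p = 0.000122), and Ulk2 by log2 0.36 in gastrocnemius and -0.29 in soleus, a difference of 0.65 ± 0.13 (adjusted p = 0.00149). Nampt did likewise, by log2 0.42 in gastrocnemius and -0.30 in soleus, a difference of 0.72 ± 0.08 (adjusted p = 2.32e-05). Ddit4 changed by log2 -1.15 in gastrocnemius and -0.16 in soleus, a difference of -0.98 ± 0.25 (adjusted p = 0.00968). Zbtb16, which did not pass in gastrocnemius, changed by log2 -0.02 in gastrocnemius and -0.98 in soleus, a difference of 0.96 ± 0.23 (adjusted p = 0.00649). The collagens had the lower log2 values in gastrocnemius, Col1a1 with log2 -1.67 in gastrocnemius and -0.77 in soleus, a difference of -0.90 ± 0.27 (adjusted p = 0.0213) and Col3a1 by log2 -1.70 in gastrocnemius and -0.64 in soleus, a difference of -1.06 ± 0.27 (adjusted p = 0.00888). Vwf changed by log2 -0.58 in gastrocnemius and 0.25 in soleus, a difference of -0.82 ± 0.15 (adjusted p = 0.00112), and Ptprb by log2 -0.30 in gastrocnemius and 0.41 in soleus, a difference of -0.70 ± 0.15 (adjusted p = 0.00362). Actn3 changed by log2 0.41 in gastrocnemius and 1.97 in soleus, a difference of -1.56 ± 0.41 (adjusted p = 0.0111), the larger value being in soleus. All of these differences kept their call under every alternative fit of the 2 muscles. Myh4, like Actn3 a gene of fast fibres, lay at 27.8 to 1130 CPM in non-treated soleus and 750 to 1878 CPM in DEX soleus. The part of fast-fibre content of the soleus samples in the Actn3 difference was not tested. Whether equal mouse numbers in gastrocnemius and soleus mark the same animal is not stated in the labels.

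**Figure D5:**
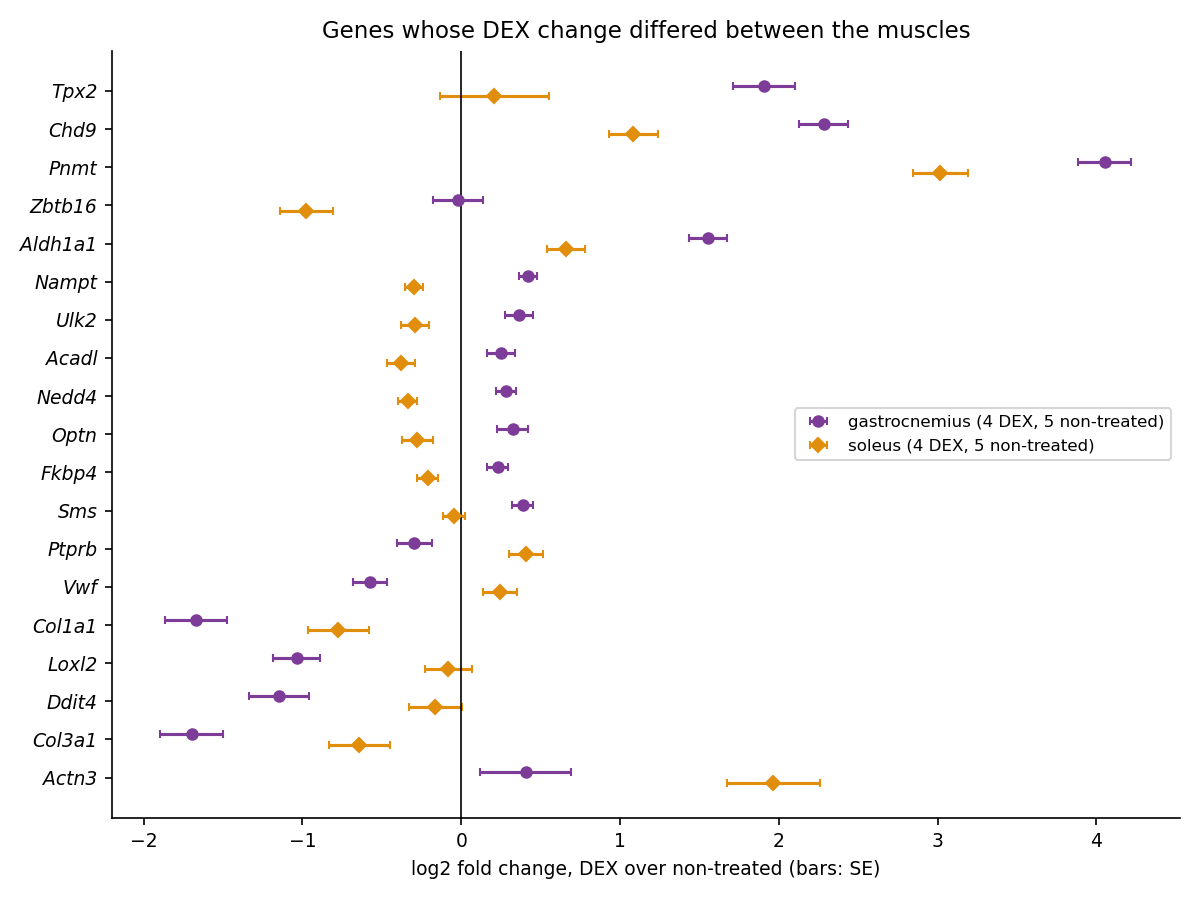
Log2 fold change (DEX over non-treated) of 19 genes in gastrocnemius and soleus, from 1 fit of both muscles, for genes whose difference between the muscles passed in the main fit and in every alternative. Points are estimates and bars their standard errors. Nedd4, Ulk2, Optn, Nampt, Acadl and Fkbp4 lie above 0 in gastrocnemius and below 0 in soleus, and Vwf and Ptprb the reverse.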

How the data were processed

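Per the labels' protocols, RNA was extracted with TRIzol, libraries were made with the MGIEasy RNA Directional kit and read as 100-base pairs on an MGIseq instrument, and each library is 1 mouse. The values analysed are expected counts per gene, deposited by the authors in 1 table. RSEM 1.3.3, STAR 2.7.3a, Trim Galore 0.6.5 and FastQC 0.11.9 are named, with the build GRCm38 (mm10), per the submitters' processing notes. Their settings, the annotation and the strand setting are not given in the sources used here. Of 42807 genes listed, 20254 had no count in the 9 libraries, and 18.7% of the non-zero values were not whole, so values were rounded before testing.

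The 4 DEX and 5 non-treated libraries were fitted by themselves in edgeR 4.0.16 (R 4.3.3) with filterByExpr, TMM and the quasi-likelihood test, and p-values were adjusted by Benjamini-Hochberg over all 13786 genes. The difference between muscles is the interaction in a fit of the 18 DEX and non-treated libraries of both. In both fits the standard error was derived from the test. It is the log2 value, without its sign, divided by the square root of the F statistic. Gene lists were counted, not tested. The genes and lists were chosen with earlier results of these data known. The pool of genes to name was the 12 largest rises and 12 largest falls among passing genes with a mean of at least 5 CPM and no overlap between the groups, up to 3 members of each list per direction, and a panel. The 119 given with values were picked from it after their values were seen, except Dbp, which the promoter rule added, and further list members were named after their values were seen.

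Alternatives were DESeq2 1.42.0 and its size factors, other filters on low counts, all gastrocnemius libraries in 1 fit, the mouse number as a block, and each library left out in turn. On simulated counts of 13668 genes with the means and library sizes of this comparison, 65, 64 and 65 genes were changed 1.5-fold, 2-fold and 4-fold. The test called 56.9%, 84.4% and 100% of these and 0.0668% of unchanged genes. A far smaller share of genes was changed than passed in the data, and the adjusted p depends on that share. The rates therefore do not carry over directly to this comparison. P-values weigh the difference between the groups against the spread between mice, and depth limits genes of few counts. Of the 119 genes, 21 have over 10% of 31-base words in common with other genes and 30 overlap an exon on the opposite strand (GENCODE M21), so their counts are less certain. Promoters are RefSeq's. Python 3.11.15 with pandas 2.3.3 made the tables, and matplotlib 3.10.9 drew the figures.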

Additional observations from a re-analysis of the deposited data

Results flagged for a closer look

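Among the genes given above, 33 had a DEX change that differed between gastrocnemius and soleus in the test of the difference itself, and the values here are gastrocnemius minus soleus on the log2 scale. More positive in gastrocnemius were Orm1 (1.65), Tsc22d3 (0.51), Zbtb16 (0.96), Pnmt (1.03), Gnmt (1.30), Chd9 (1.20), Nedd4 (0.62), Optn (0.60), Ulk2 (0.65), Nampt (0.72), Cry2 (0.51), Arntl (0.85), Acadl (0.63), Sms (0.43), Aldh1a1 (0.89), Tmem100 (1.03), Tpx2 (1.70) and Fkbp4 (0.44). More negative in gastrocnemius were Ddit4 (-0.98), Nnmt (-1.21), Fst (-0.92), Actn3 (-1.56), Pvalb (-1.21), Mybph (-4.02), Col1a1 (-0.90), Col3a1 (-1.06), Col1a2 (-0.83), Col15a1 (-0.79), Fbn1 (-0.95), Loxl2 (-0.96), Vwf (-0.82), Ptprb (-0.70) and Cebpa (-1.19). Of these, 14 lost the call in at least 1 alternative fit. The number of such fits was 17 for Tsc22d3, 15 for Tmem100, 14 for Pvalb, 13 for Cry2 and 12 for Orm1. It was 11 for Arntl and for Cebpa, 9 for Fst, 4 for Gnmt and 3 for Fbn1. Mybph and Col15a1 each lost the call in 2, and Nnmt and Col1a2 each in 1. The difference of Mybph was lost with the mouse number as a block (-2.83, adjusted p = 0.12) and without soleus DEX mouse 4 (-2.34, adjusted p = 0.0536).

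A single mouse stood far from its group in 16 of 262 groups of values examined (6.11%), where chance gives about 1 in 20. DEX mouse 4 accounts for 6 of these and non-treated mouse 3 for 6. In DEX mouse 4, Igf1 was at 51.4 CPM against 21.9 to 22.8 CPM in the other DEX mice, Musk at 22.9 against 13.9 to 15.4, Actc1 at 219 against 78.1 to 90.4, Cyp2e1 at 62.1 against 24.5 to 26.1 and Thrsp at 27.6 against 21.2 to 21.9. Klf15 was low there, at 10.4 CPM against 20.3 to 21.1. Non-treated mouse 3 was high in Lcn2 (4.08 CPM against 0.766 to 1.28 in the other non-treated mice), Mt1 (38.4 against 11.2 to 17.2), Gnmt (2.74 against 0.697 to 1.18), Rsad2 (10.9 against 3.33 to 4.36) and the summed interferon-stimulated genes (624 against 154 to 213), and low in Asb2 (415 against 643 to 672). The other mice that stood apart were DEX mouse 1 for Nr3c1 (106 CPM against 94.4 to 96.0), DEX mouse 2 for Aqp7 (7.97 against 9.44 to 9.70), DEX mouse 3 for the summed collagens (447 against 532 to 549) and non-treated mouse 1 for Ifi27l2a (4.69 against 8.44 to 9.48). What set these mice apart was not tested.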

How the results depend on the processing

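The count of genes passing, 2722, was 2748 with DESeq2's size factors, 2777 with its test, 2514 with no filter, 2224 with the stricter filter and 2031 to 2779 with each library left out. A fit of all 43 gastrocnemius libraries gave 1214 (624 higher, 590 lower), and 34 of the genes given lost their call in it. Leaving out of that fit the 1 JGT02 library that stands apart, an alternative chosen after seeing the data, gave 3812 and no lost call among them. Leaving out both libraries apart on the second component, also chosen then, gave 2782. In the 43-library fit 5 collagen chains and 2 genes of oxidative phosphorylation fell. Same-numbered mice of the groups did not deviate together (correlations of 0.033, -0.062, -0.104 and 0.036), so the numbers are only shared. With the mouse number as a replicate block 1975 genes passed (1003 higher, 972 lower), 4 cytosolic ribosomal protein genes rose and 4 tendon markers fell. The 3460 genes that differed between muscles were 3504 and 3813 with DESeq2's size factors and test, 2760 with no filter, 2847 with the block and 2607 to 4011 with each library left out. Of 98 passing genes given, 90 passed with the same sign in all 9 fits that left out 1 library, and none of the 98 changed sign in any alternative. Signs turned only for genes that did not pass: Nr3c1 (0.004 with DESeq2's size factors, its test or the block, 0.006 without both libraries), Tsc22d3 (-0.11 without both), Sgk1 (0.093 with the block, 0.021 without both), Foxo1 (0.024 with the block), Arrdc3 (-0.03 in the comparison itself, 0.045 with the block, 0.034 without both) and Cebpd (0.22 without both). With each library left out the ranges were -0.040 to 0.015 for Nr3c1, -0.12 to 0.18 for Tsc22d3, -0.205 to 0.065 for Zbtb16, -0.105 to 0.094 for Sgk1, -0.054 to 0.026 for Foxo1, -0.23 to 0.11 for Arrdc3 and -0.15 to 0.10 for Cebpd. The causes of these shifts were not tested.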

Other observations

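Lists not described above also moved. Of 30 heat shock and chaperone genes 5 rose and 1 fell, with 3 to 8 rises as each library was left out (3 without non-treated mouse 1 or 4 or DEX mouse 4, 8 without DEX mouse 1 or 2). Haemoglobin genes of blood summed to 271 to 379 CPM in DEX mice and 218 to 265 CPM in non-treated mice, and 4 of 5 rose, 2 without DEX mouse 3. Schwann cell and myelin markers summed to 160 to 237 CPM in DEX mice and 186 to 344 CPM in non-treated mice, the highest value being that of non-treated mouse 3, and 1 of 15 fell (2 without DEX mouse 1). Lymphocyte markers summed to 35.3 to 41.4 CPM in DEX mice and 21.4 to 59.4 CPM in non-treated mice. All 13 tested interferon-stimulated genes of the type II group missed the threshold although their median log2 fold change was -1.29. That median includes non-treated mouse 3, and a value without that mouse is not given. Over the whole interferon-stimulated list it had 624 CPM, against 154 to 213 CPM in the other non-treated mice.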
